A study of Drosophila melanogaster with 2 samples.

Results

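The X chromosome summits are the entries on chromosome X in the list of reproducible Tailless binding sites that the authors derived from ChIP-seq of Drosophila melanogaster embryos. They were chosen by chromosome alone, and they numbered 446 of 4045 entries, against 3599 on the autosomes. A summit is the base at which the enrichment of an entry was highest, and the X summits lay in 422 intervals with a median width of 516 bp, of which 22 intervals held several summits (46 summits in all, at most 3 in an interval).

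The embryos were of the transgenic strain labelled 8T-GFP, in which a GFP tag sits at the C terminus of Tailless (gene tll), and chromatin was precipitated with an antibody to GFP. Whole embryos of both sexes were collected at 0 to 4 h of age and their chromatin was sonicated to 200 to 800 bp. There were 2 biological replicates, called 1 and 3 as in the labels, with no other genotype, treatment or time, and a control was not analysed here. The tag is carried by all samples, so the values describe tagged Tailless in all cells of the embryo together, and the cells that bound it cannot be told apart. The depth of the libraries is unknown because the lists hold no read counts.

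Tailless is an orphan nuclear receptor of the terminal gap class. In the early embryo it is made at both poles under control of the Torso receptor, represses segmentation genes of the trunk and takes part in forming the head and the brain, and it is known to bind the word AAGTCA. The X chromosome carries regulators of the same hours of development: the gap gene gt (giant), the pair-rule gene run (runt), the head genes oc and btd, the pioneer factor zld (Zelda), and the X signal elements sisA, sc, upd1 and run, through whose dose the embryo switches Sxl on in females. Males have a single X, so a pool of both sexes holds fewer copies of X than of autosomal sequence, and the part of this in the signal of X summits was not tested.

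AAGTCA, on either strand within 50 bp of the summit, was found at 77 X summits. Of these, 51 had a window, 50 bp to either side, that touched no annotated exon, and the 10 of them with the highest signal are printed to show how the word sits at the summits named in the results. Each is the plus strand of the Release 6 assembly, the same as dm6, with the summit at the middle base and the word in capitals, as AAGTCA or as its reverse complement TGACTT. The name is that of the protein-coding gene with the nearest transcription start site (TSS).
upd1 (chrX:18300858-18300958): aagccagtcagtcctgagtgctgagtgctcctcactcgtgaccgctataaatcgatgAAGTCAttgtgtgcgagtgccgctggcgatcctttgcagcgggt
hydra (chrX:20680557-20680657): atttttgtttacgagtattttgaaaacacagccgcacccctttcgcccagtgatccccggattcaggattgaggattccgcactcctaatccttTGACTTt
CG6696 (chrX:18668403-18668503): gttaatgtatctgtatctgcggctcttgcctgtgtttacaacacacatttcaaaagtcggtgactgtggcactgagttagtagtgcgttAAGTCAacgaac
B-H1 (chrX:17368675-17368775): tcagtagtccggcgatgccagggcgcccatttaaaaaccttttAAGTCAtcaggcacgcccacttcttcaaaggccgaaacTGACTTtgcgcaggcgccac
upd3 (chrX:18288811-18288911): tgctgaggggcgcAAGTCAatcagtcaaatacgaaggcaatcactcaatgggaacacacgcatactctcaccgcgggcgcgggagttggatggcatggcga
btd (chrX:9691257-9691357): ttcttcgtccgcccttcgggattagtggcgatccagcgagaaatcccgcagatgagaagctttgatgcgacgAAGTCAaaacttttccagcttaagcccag
run (chrX:20691374-20691474): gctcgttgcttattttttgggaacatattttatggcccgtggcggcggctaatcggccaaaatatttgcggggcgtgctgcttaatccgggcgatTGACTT
CG1324 (chrX:20736263-20736363): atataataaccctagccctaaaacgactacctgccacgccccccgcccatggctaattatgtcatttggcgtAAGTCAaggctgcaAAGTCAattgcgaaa
sesB (chrX:10785210-10785310): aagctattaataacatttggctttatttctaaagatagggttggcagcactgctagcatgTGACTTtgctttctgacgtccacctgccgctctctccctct
sc (chrX:399877-399977): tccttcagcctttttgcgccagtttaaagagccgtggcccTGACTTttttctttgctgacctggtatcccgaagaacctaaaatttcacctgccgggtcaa
The windows nearest to B-H1 and CG1324 each held 2 copies of the word and the others 1. In the upd1 window, the second-ranked X summit, the word began within 10 bases of the summit, whereas in the hydra, run and CG6696 windows it lay near the edge of the window. A copy of the word is a match of letters and no measure of contact.

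The signal of X summits, the authors' enrichment value of each entry in the replicates pooled, ran from 195 to 1366 with a median of 285 and quartiles of 224 and 376. The scale of this value is not stated, and it serves here to rank and describe. Autosomal summits had a median signal of 287 and a highest value of 3700, so the medians lay close together while the top of the X list stood well below that of the autosomes. All 446 X summits overlapped an entry in the list of each replicate, which was largely set in advance because the entries were selected from both replicates. At the X summits the replicate 1 value ran from 62.3 to 811 with a median of 160, and the replicate 3 value from 66.3 to 562 with a median of 147. Replicate 1 was the higher at 294 X summits and replicate 3 at 152, with a median ratio of 1.10 at X summits and 1.11 at autosomal summits (replicate 1 over replicate 3). The replicates differed by more than 1.5-fold at 74 X summits and by more than 2-fold at 9. The SD of the log2 values over the 2 replicates had a median of 0.20 and reached 1.02.

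The X summit with the highest signal, at chrX:15646645-15647518, lay in intergenic sequence 2781 bp from the TSS of CG8117 and 13569 bp upstream of the 5′ end of sog (short gastrulation), which encodes a secreted inhibitor of BMP signalling. Its pooled signal was 1366, rank 50 of 4045 over all chromosomes, with 811 in replicate 1 and 555 in replicate 3, or 9.39 ± 0.39 on the log2 scale (mean ± SD, n = 2). Replicate 1 was clearly the higher here, but both values were high within their own lists. The next was 7351 bp downstream of a TSS of upd1 (unpaired 1), which encodes a secreted ligand of the JAK/STAT pathway, with a pooled signal of 1222, 639 in replicate 1 and 562 in replicate 3 (9.23 ± 0.13). The third lay 4 bp upstream of the TSS of dah, a gene known for its part in cellularization, with a pooled signal of 1149, 643 in replicate 1 and 508 in replicate 3 (9.16 ± 0.24). These 3 were the only X summits among the 100 with the highest signal of the list.

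Further down, summits lay at promoters of genes of general cell function as well as beside early regulators. CkIalpha, a casein kinase of Wnt and Hedgehog signalling, had a summit 85 bp from its TSS with a pooled signal of 931, 475 in replicate 1 and 463 in replicate 3. Ugalt, a UDP-galactose transporter, had one 30 bp from its TSS with a pooled signal of 822, 361 in replicate 1 and 456 in replicate 3, so that here replicate 3 was the higher. Ubqn, a ubiquilin, had one 94 bp away with a pooled signal of 760, 395 in replicate 1 and 380 in replicate 3. That summit was also 196 bp from the TSS of dome, the receptor of the JAK/STAT pathway, and nearest-gene assignment gave it to Ubqn alone. Intronic summits included those of Tlk, a Tousled-like kinase, with a pooled signal of 898, of kirre, an immunoglobulin adhesion protein of muscle founder cells, with 865, and of mgl, the endocytic receptor Megalin, with 765. In replicates 1 and 3 these had 500 and 413 at Tlk, 411 and 455 at kirre, and 406 and 358 at mgl. Both replicates had values above 350 at these 3 summits.

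Of the 25 X summits with the highest signal, 13 were intergenic, 9 intronic and 8 within 500 bp of a TSS, and 7 had AAGTCA within 50 bp. The first exceeded the 25th 2.08-fold. A gene of the 18 lists described further on was the nearest gene of 9 of them, and a listed gene was nearest or within 30 kb for 20 of them. Those whose nearest gene is known by a number or little studied included CG12496, CG6696, CG15059, CG14434, CG4004, CG2004, CG32639 and hydra. The CG12496 summit, with a pooled signal of 961, 495 in replicate 1 and 497 in replicate 3, lay 20092 bp from the 5′ end of gt. The CG15059 summit, with 854, 474 in replicate 1 and 375 in replicate 3, lay 16900 bp from upd2. The CG6696 summit, with 877, 429 in replicate 1 and 440 in replicate 3, lay 10698 bp from fu, a kinase of Hedgehog signalling. In each case the listed gene was not the nearest, and which gene such a summit acts on, if any, was not measured.

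**Figure D1:**
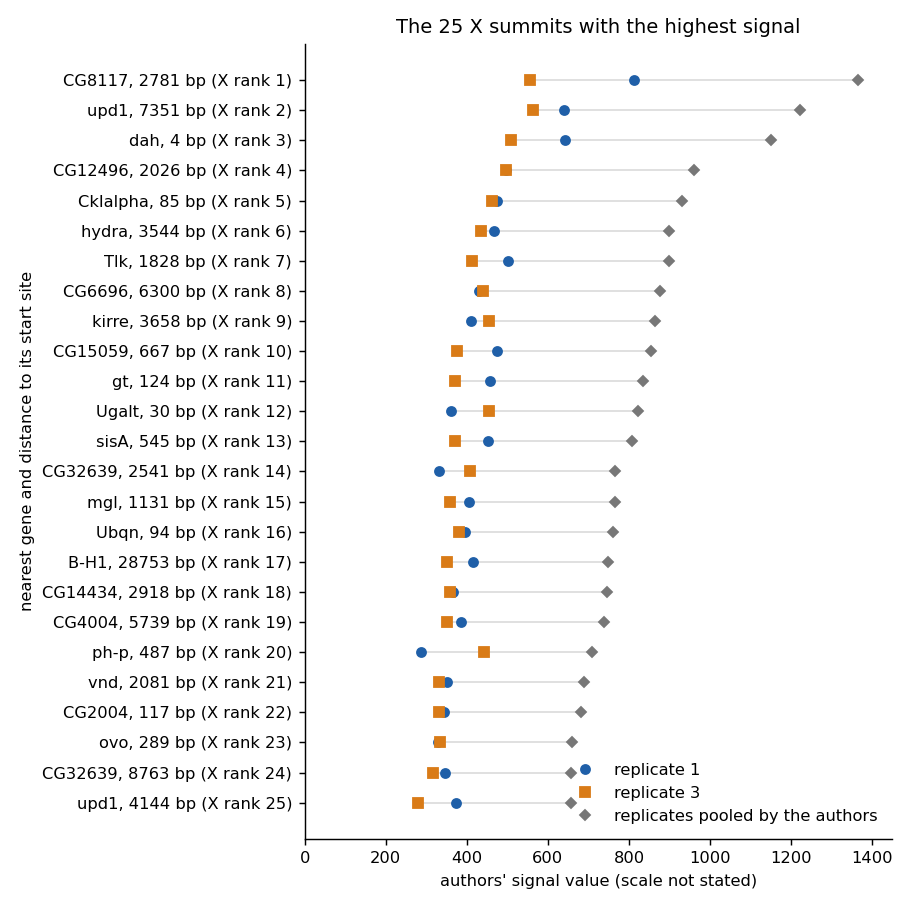
Signal of the 25 X summits with the highest pooled signal, 1 row per summit named by its nearest protein-coding gene and the distance to its TSS. The horizontal axis is the authors' signal value (scale not stated), circles are replicate 1, squares replicate 3 and diamonds the pooled list; the first summit has 811 and 555 in the replicates and 1366 pooled, and ph-p has the value of replicate 3 (443) well above that of replicate 1 (287).

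Summits were also counted around the 5′ ends of early regulators, in windows of 25 kb to either side, for genes picked after the values were seen. The upd1 window held 8 summits, all downstream of the 5′ end. Within them, 3 summits clustered 4706 to 5176 bp from the 5′ end with pooled signals of 364, 593 and 657, which share an interval and the replicate values of 373 and 279. A pair lay at 8174 and 8383 bp, with pooled signals of 640 and 1222. A further pair lay at 20229 and 20430 bp, with pooled signals of 229 and 615, and was nearest to upd3, another ligand of the same receptor. The stretch between upd2, upd3 and upd1 thus contained the summits of all 3 ligand genes, that of upd2 itself lying 679 bp from its 5′ end with a pooled signal of 285, 185 in replicate 1 and 108 in replicate 3. The upd2 value was over 1.5-fold higher in replicate 1, unlike that of upd3 at 323 and 303.

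Around run, which encodes the pair-rule Runx factor, 7 summits stood on both sides. The highest, at 10063 bp upstream, had a pooled signal of 900 with 467 in replicate 1 and 434 in replicate 3, and was nearest to hydra. In the run intron, 754 bp from the 5′ end, a summit had a pooled signal of 528 with 256 in replicate 1 and 282 in replicate 3, and at 22844 bp downstream another had 614 with 335 and 277. Around gt, a bZIP repressor of the gap class, 4 summits were found. Those upstream had pooled signals of 833 at 124 bp, 574 at 2337 bp and 351 at 5656 bp, so the signal was highest at the promoter and lower with distance, and another with 961 lay 20092 bp downstream. At 124 bp the replicates had 458 and 372, at 2337 bp 310 and 264, and at 5656 bp 177 and 180, the same order in both.

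At sc, a proneural bHLH gene and X signal element, the window held 7 summits. The one nearest to sc, 3867 bp downstream of its 5′ end, had a pooled signal of 497 with 278 in replicate 1 and 240 in replicate 3. Upstream, 5 summits with pooled signals between 200 and 445 lay between sc and ac (achaete) and were nearest to ac, and the summit of l(1)sc was 15 bp from its TSS with a pooled signal of 250, 83.0 in replicate 1 and 157 in replicate 3. The highest summits of sc and ac lay below the highest of gt (833) and run (614) and within the range of the other summits of these genes, and the l(1)sc value was less even between replicates than that of sc. Around zld the window held 6 summits. That with the highest signal of the 2 nearest to zld lay 3521 bp upstream with 479, 230 in replicate 1 and 263 in replicate 3, and the other 85 bp upstream with 243, 165 in replicate 1 and 103 in replicate 3.

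**Figure D2:**
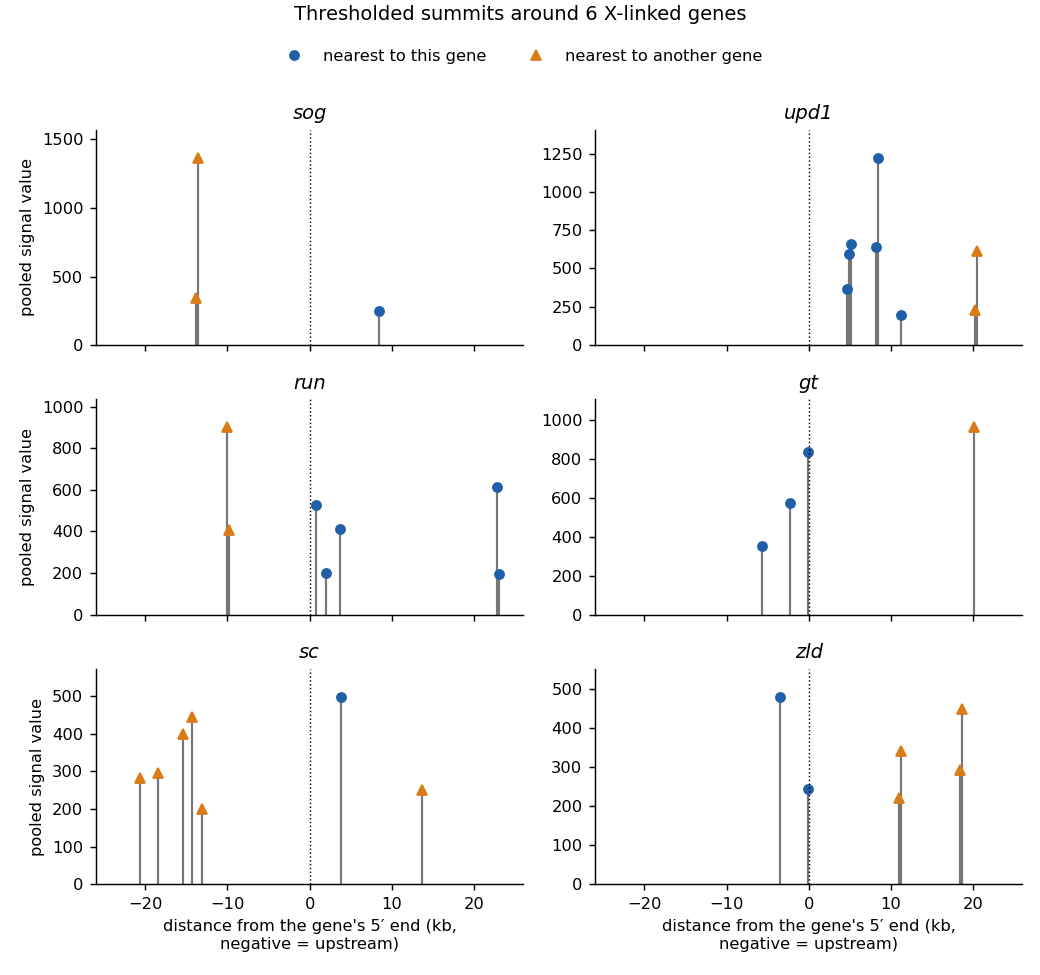
Thresholded summits within 25 kb of the 5′ ends of 6 X-linked genes. The horizontal axis is the distance from the 5′ end in kb (negative upstream), the vertical axis the pooled signal value, with its own scale in each panel; circles are summits nearest to the named gene and triangles summits nearest to another gene, as the highest one beside sog (1366) and beside run (900).

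A gene was called bound when at least 1 summit had its TSS as the nearest protein-coding TSS, at most 20 kb away. By this rule 431 of the 446 X summits were assigned and 265 of 2177 X-linked protein-coding genes were bound, or 12.2%, against 16.5% of autosomal genes (1907 of 11564). Of the bound X genes, 175 had 1 summit, 53 had 2, 16 had 3 and the rest 4 to 8. The bound genes had more sequence around them than the rest: the median stretch nearest to a gene's TSS was 12162 bp for bound X genes and 4926 bp for X genes that were not bound. Counts of bound genes in 18 lists were read against the 12.2% with this in view, as genes of the lists had a median stretch of 10377 bp against 5297 bp over all X-linked genes. These counts carry no test, since the lists were chosen with earlier results of these data known.

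All 4 X-linked members of the gap and head gap list were bound. After gt, these were oc (ocelliless, the homeobox gene orthodenticle), btd (buttonhead, a zinc finger gene of the head) and Sp1. Sp1 is a neighbour of btd that was also on the list. The oc summit, 163 bp from the 5′ end, had 627, with 327 in replicate 1 and 292 in replicate 3. At btd the pooled signal was 529, with 239 in replicate 1 and 310 in replicate 3, and at Sp1 319, with 178 in replicate 1 and 145 in replicate 3. Their strongest summits had a median signal of 578, and the median stretch around these genes was 29511 bp. Replicate 3 was the higher at btd and replicate 1 at oc and Sp1.

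Of 7 sex determination genes 6 were bound, with 18 summits and a median strongest signal of 555. Over all X-linked genes the bound share was 12.2%. The median stretch around the members of this list was 19845 bp, against 5297 bp over all X-linked genes. The X signal elements stood highest: upd1, then sisA, a bZIP factor, whose summit 545 bp upstream had 808 with 453 in replicate 1 and 370 in replicate 3, then run at 614 and sc at 497. Their target Sxl, the RNA-binding switch gene of female development, had only 2 summits, both inside the gene, of 212 (102 in replicate 1 and 109 in replicate 3) and 210 (115 and 101). Sxl was near the bottom of the list, at ranks 3443 and 3523. The unbound member was snf, a general splicing factor, with no summit within 20 kb.

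In the JAK/STAT list 4 of 7 members were bound. These were the ligands upd1, upd3 and upd2 and Socs16D, a member of the SOCS family of pathway inhibitors, whose only summit, 2 bp from its TSS, had 208, with 116 in replicate 1 and 91.3 in replicate 3. The 3 unbound members were the receptor dome, the related receptor et and the kinase hop. The bound members were thus the ligands and an inhibitor, and dome counted as unbound because Ubqn starts nearer to the shared summit. Counting every gene with a TSS within 5 kb of a summit made 435 X genes bound in place of 265.

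Homeobox, T-box and related fate regulators had 17 of 27 members bound, the largest number of any list, with 48 summits. Apart from sisA, oc and run, disco and Cph had the highest signals, 560 and 487. Both are zinc finger genes, disco (disconnected) of the head. The 6 disco summits stood on both sides of its 5′ end, 4361 to 19621 bp upstream and 11935 to 13301 bp downstream. The highest, 11935 bp downstream, had 272 in replicate 1 and 308 in replicate 3. The homeobox gene Lim1 had 5 summits between 217 and 303, bi (optomotor-blind, a T-box gene) 5 between 235 and 434, and Vsx1 4 between 213 and 373. B-H1 and B-H2, the Bar homeobox pair, each had promoter summits near 219 and 254, whereas the highest summit of the region, 748 with 414 in replicate 1 and 350 in replicate 3, lay 28753 bp upstream of B-H1 in the stretch towards B-H2 and was too far to be assigned. The 10 unbound members included the Hox cofactor exd and the ecdysone response gene br, with the closest summit to exd at 80303 bp. The median stretch around the members of this list was 27142 bp.

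In the list of cellularization and early zygotic genes 7 of 10 were bound, against 12.2% of all X-linked genes. The median stretch around its members was 21448.5 bp, against 5297 bp over all X-linked genes. The list did not hold dah, whose summit had the third highest signal on X (1149). Besides sisA and zld these were dlg1, a membrane scaffold of septate junctions, nullo, a gene of furrow formation, CG14427 with 4 summits between 286 and 313, spri and Sxl. The dlg1 summit had 354, with 193 in replicate 1 and 177 in replicate 3, and the nullo summit, 179 bp upstream, 317, with 153 in replicate 1 and 169 in replicate 3. The pooled values of dlg1 and nullo lay between the X median (285) and the upper X quartile (376). The unbound members were CG1503, Moe (the membrane linker Moesin) and sdt (the polarity scaffold Stardust). Gastrulation and adhesion genes had 6 of 14 bound. Among them fog (folded gastrulation, a secreted signal for cell shape change) had 577 with 269 in replicate 1 and 310 in replicate 3, and its receptor gene mthl1 had 458 with 248 and 215, so both had summits. Fas2, a homophilic adhesion protein, had 509 with 252 and 266.

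In the achaete-scute region and its neighbours 5 of 10 genes were bound. The highest signal there was that of vnd, an NK homeobox gene of the ventral neural column, whose summit in its intron had 688 with 350 in replicate 1 and 330 in replicate 3, followed by sc, by ac with 445, 194 in replicate 1 and 270 in replicate 3, and by elav, a neuronal RNA-binding protein, with 336. The unbound genes were Appl, ase, svr, y and Pgcl. The dorsoventral and neural column list had 4 of 10 bound, vnd, fog, NetA with 268 and sog, for which the assigned summit, in its intron, had 249 with 160 in replicate 1 and 94.4 in replicate 3. Unbound were NetB, brk, if, mew, mys and pcx. Of these brk, a repressor of BMP targets, had 6 summits within 20 kb, the closest at 10696 bp, all nearer to other genes, and mew, an integrin subunit, had 5 summits in its introns that were all nearest to CG32639, a small gene within it. The summits in the mew introns had pooled signals of 442 to 765, with 331 in replicate 1 and 407 in replicate 3 at the highest.

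In the Notch list 3 of 6 were bound: N, the Notch receptor gene, with 6 summits, peb (pebbled, a zinc finger gene) with 482, 293 in replicate 1 and 197 in replicate 3, and ct (cut, a homeobox gene) with 307. The unbound members were amx, dx and pcx. The N summits were all in introns, between 1866 and 17744 bp downstream of its 5′ end, with pooled signals from 197 to 375. Among pair-rule and segment polarity genes 3 of 6 were bound, run, sgg (shaggy, the GSK3 kinase) with 309 and fu with 258, and arm, dsh and por of Wnt signalling were not. In the Torso and Ras list Raf alone of 5 was bound, and Dsor1, csw, fs(1)M3 and fs(1)N were not. Raf, the kinase that carries the Torso signal, had 8 summits, more than any other X gene, between 211 and 417, of which 7 lay 849 to 10533 bp downstream of its first TSS and 1 lay 8 bp from another. The highest had 215 in replicate 1 and 206 in replicate 3. Of 2 nuclear receptor genes Hr4 was bound, with 383, 139 in replicate 1 and 244 in replicate 3, and usp was not.

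The list of chromatin and dosage compensation genes had 3 of 8 members bound. The Polycomb gene ph-p had 709, with 287 in replicate 1 and 443 in replicate 3 (8.48 ± 0.44), and its neighbouring copy ph-d had 223, with 62.3 in replicate 1 and 156 in replicate 3. Replicate 3 was the higher at both, and at ph-d by more than 2-fold. The other bound member, Ubi-p5E, had 205. It is a polyubiquitin gene that the list held, and it is neither a Polycomb nor a dosage compensation gene. The dosage compensation acetyltransferase mof was unbound, as were Taf9, e(y)3, fs(1)h and trr. For the non-coding RNA roX1, which belongs to the dosage compensation complex and was outside the gene counts, a summit lay 519 bp from its 5′ end with 309, 179 in replicate 1 and 128 in replicate 3, whereas the closest to roX2 was 8695 bp away.

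The remaining lists held ribosomal, cuticle and enzyme, germ-line, neuronal and receptor genes. Of 14 ribosomal protein genes 3 were bound, or 21.4% against the 12.2% of all X-linked genes, with a median stretch of 3229.5 bp around them. They were RpS19a with 529, 292 in replicate 1 and 264 in replicate 3, RpS10b with 257 and RpL22 with 197. In the list of cuticle, pigment and adult enzyme genes 4 of 17 were bound (23.5%), Cyp18a1, an ecdysteroid-inactivating P450, with 509, Pgd with 279, w (white) with 213 and Zw with 195. The germ-line and oogenesis list had 1 of 13 bound (7.69%), ovo, a zinc finger gene with maternal germ-line and epidermal roles, whose summit 289 bp from a TSS had 659 with 328 in replicate 1 and 333 in replicate 3. None of 10 neuronal excitability genes and none of 14 odorant and gustatory receptor genes was bound, and the median stretch around the neuronal genes was 13451.5 bp and around the receptor genes 3595.5 bp. With so few members, 0 is near the share of 12.2% and is not a result about either list. Under other assignment rules the neuronal list had 1 bound member (gene body with 2 kb) or 3 (any TSS within 5 kb), and the receptor list 0 or 1.

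**Figure D3:**
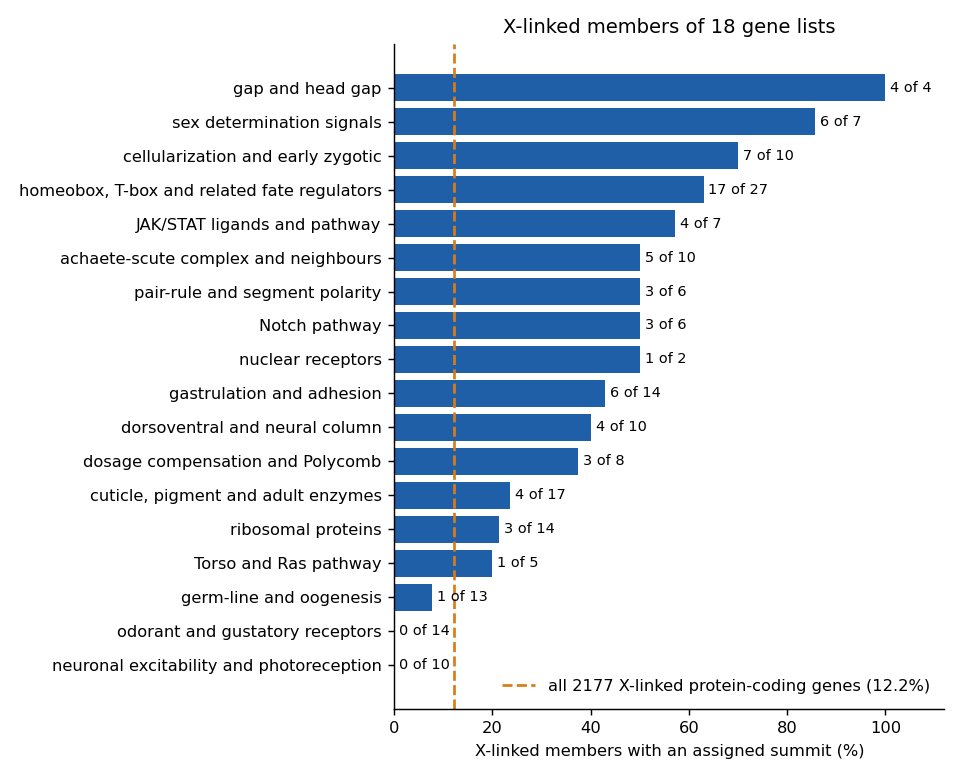
Share of the X-linked members of 18 gene lists that had at least 1 assigned summit, with the number bound and the number of members beside each bar. The dashed line is the share over all 2177 X-linked protein-coding genes, 12.2%; gap, sex determination and cellularization genes stand at the top and receptor and excitability genes at 0.

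Besides Raf with 8, the genes with 6 were upd1, disco and N, and Tlk and CG32639 followed among those with 5. The 5 summits of Tlk lay in introns or a noncoding exon of its body with pooled signals of 199 to 898, and those of CG32639 in the introns of mew. Of all 222 intronic X summits, 59 were in a gene other than the one with the nearest TSS, so the nearest gene and the host gene were not the same there.

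X summits differed in location from autosomal summits in the share within introns. Of 446 X summits, 222 were intronic, 49.8% (exact binomial 95% interval 45.0 to 54.5), against 40.9% of 3599 autosomal summits (39.3 to 42.6), a ratio of 1.22 (two-sided Fisher's exact test, adjusted p = 0.00263 over 6 classes). Intergenic summits were the fewer on X, 34.8% (30.3 to 39.4) against 41.7% (40.1 to 43.3), a ratio of 0.834 (two-sided Fisher's exact test, adjusted p = 0.0149). The sequence itself differed in the same direction, as introns made up 46.7% of X and 41.8% of autosomal sequence and intergenic sequence 25.4% of X and 31.6% of the autosomes. Its part in the difference was not tested. On the larger autosomal arms the intronic share was 39.4% to 41.9%, below that of X on each. With the strongest 50% of the summits alone the intronic ratio was 1.18 with an adjusted p of 0.0791, and with the summits of replicate 1 alone the intergenic ratio was 0.861 with an adjusted p of 0.0679.

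The other classes gave no call between X and autosomes. Within 500 bp of a TSS lay 37.0% of X and 37.6% of autosomal summits (adjusted p = 0.836 by Fisher's exact test), and over 10 kb from any TSS 11.9% and 13.4% (0.623). UTR exons held 12.6% and 11.8% (0.770) and coding sequence 0.673% and 1.64% (0.301), the coding share on X resting on 3 summits. Among X summits those within 500 bp of a TSS had a median signal of 257, those at 500 bp to 10 kb 301 and those beyond 10 kb 288. The median distance from an X summit to a TSS was 1306.5 bp, against 1465 bp on the autosomes, and the longest on X 33678 bp, at kirre.

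**Figure D4:**
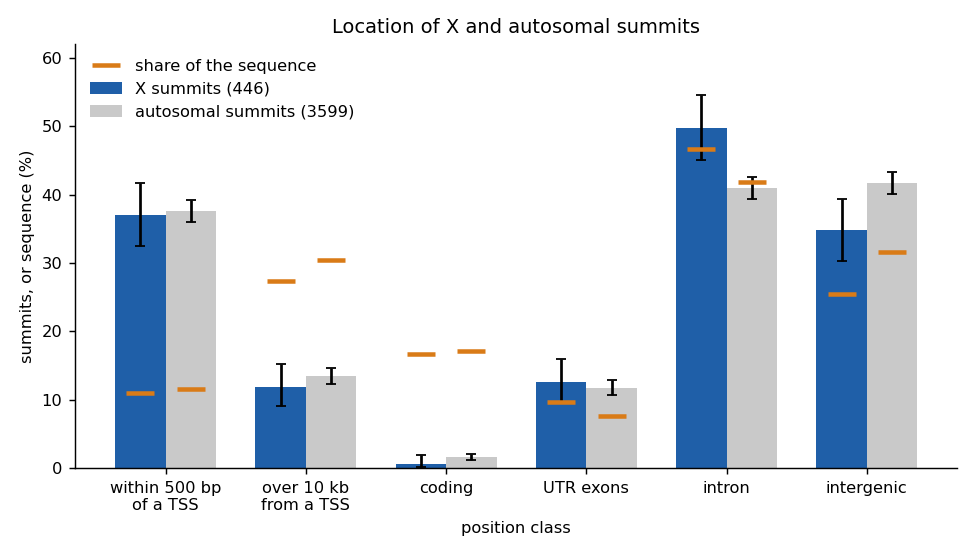
Shares of X summits (left bar of each pair, 446) and of autosomal summits (right bar, 3599) in 6 position classes, which overlap, with exact binomial 95% intervals; the vertical axis is percent of summits. Short lines give the share of sequence in each class, and introns hold 49.8% of X summits and 40.9% of autosomal summits.

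Of 6 words searched in either orientation up to 50 bp from the summit, none passed the threshold of 0.05 between X and autosomes. AAGTCA was at 17.3% of X summits (13.9 to 21.1) and 14.8% of autosomal summits (13.6 to 16.0), with an adjusted p of 0.321 by two-sided Fisher's exact test over the 6 words. In windows 500 bp to either side it was at 4.93% of X and 4.78% of autosomal windows, so the share at the summit was 3.50-fold that of the flanks on X and 3.09-fold on the autosomes. AAAGTCA, which extends the word by a base, was at 43 of the 77 X summits. By signal, the word was at 39 of the 149 strongest X summits (26.2%), at 18 of the next 149 (12.1%) and at 20 of the last 148 (13.5%). The 77 summits were assigned to 71 bound genes or stood unassigned, and 30 lay within 500 bp of a TSS.

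CAGGTA, the word of Zelda, was at 6.5% of X and 7.34% of autosomal summits (adjusted p = 0.675 by Fisher's exact test), among them those of CG8117 beside sog, of CG12496 beside gt and of the gt promoter. GAGAGA, a word of GAGA factor and CLAMP, was at 9.19% (6.68 to 12.3) of X and 6.70% (5.90 to 7.56) of autosomal summits, with flanks of 5.38% and 4.17%. The adjusted p was 0.321 by Fisher's exact test as reported, 0.00285 with a window of 100 bp and 0.00696 with replicate 1 alone. CAGCTG, an E box, was at 4.04% and 5.81% (0.321), TATCGATA, a core promoter word, at 2.02% and 1.67% (0.675) and CACACA, a simple repeat, at 13.9% and 13.9%. Of the 9 X summits with TATCGATA, 8 were within 500 bp of a TSS.

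The share of X among the summits changed with the depth of the list. X held none of the 25 summits with the highest pooled signal, 3 of the top 100, 35 of the top 500 (7%), 87 of the top 1000 (8.7%) and 446 of the 4045 thresholded (11.0%). In the longer pooled list it held 13.1% of the top 8000 and 14.5% of all 30000 entries. The replicates taken singly ran the same way, with 5.33% of the top 300, 9% of the top 1000 and 11.3% of the top 4045 in replicate 1 and 6.67%, 9.1% and 11.3% in replicate 3. Among X summits 341 (76.5%) were in the strongest 4045 of both replicates, against 78.6% of the autosomal summits.

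**Figure D5:**
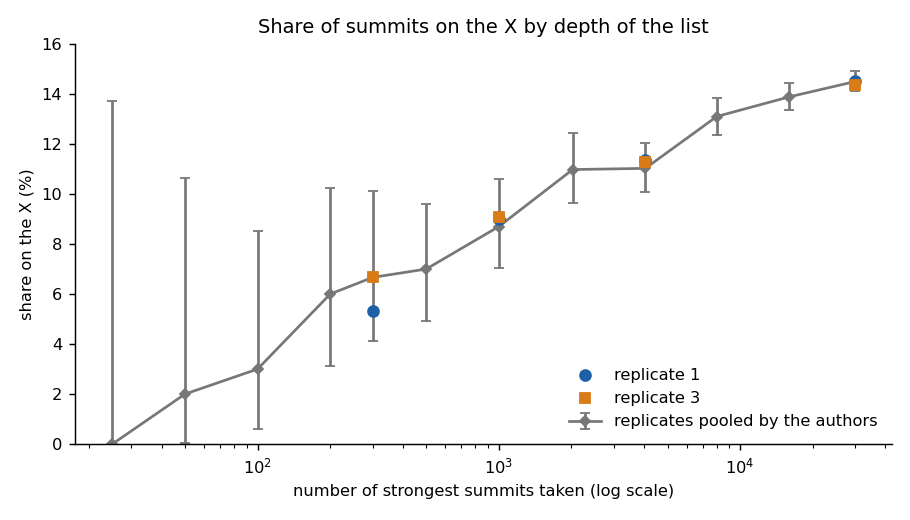
Share of entries on X among the strongest N entries, with N on a log axis from 25 to 30000 and the share in percent on the vertical axis; diamonds with exact binomial 95% intervals are the pooled list, circles replicate 1 and squares replicate 3. The share is 0 at 25, 3% at 100 and 14.5% at 30000.

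The threshold fell at genes with values that hardly differed. The last X summits inside were nearest to Zw (195.1), CG42780 (195.0) and Ptpmeg2 (194.8), and the first outside, in the pooled list, nearest to Dsor1 (194.2), kdn (194.1) and CG7065 (194.1). Dsor1, the MEK kinase downstream of Raf, was thus unbound by a margin far smaller than the spread between replicates. Along the chromosome the summits were spread unevenly, with 40 summits of 22 genes in the megabase starting at 7 Mb and 35 in that starting at 2 Mb. The stretch from 23 Mb to the end of X at 23542271 bp, shorter than a megabase and with 12 genes, held no summit. The largest gap was 1.46 Mb. The median gap between neighbours was 14048 bp, and 62 of 445 gaps were under 1 kb, so neighbouring summits are not independent.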

How the data were processed

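Per the labels and the texts deposited with them, the authors called peaks in dm6 from each replicate and from both pooled, against a control alignment, and derived 1 list past an irreproducible discovery rate threshold. The aligner, the caller and the threshold were not given in the sources used here. Signal, as deposited, is the enrichment per entry, on a scale not stated. The deposited −log10 q-value reaches a ceiling and ranked nothing. Summits came from the deposited offset. No read counts are held, so depth is unknown. The replicate and pooled lists had 30000 entries each.

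Everything else was computed with Python 3.11.15, pandas 2.3.3, numpy 2.4.6, scipy 1.17.1 and matplotlib 3.10.9, with genes from Ensembl release 115 (BDGP 6.54). A replicate value is that of the strongest entry overlapping the summit's interval by at least 1 bp, so summits of an interval, or near it, share values. Each summit went to its nearest protein-coding TSS within 20 kb. Location and words were compared between X and autosomes by two-sided Fisher's exact tests with Benjamini-Hochberg adjustment over 6 classes and 6 words, and checked on simulated data. Summits are not replicates and neighbours depend on each other, so p-values and intervals cover counting error only. Nothing says whether the replicates came from separate collections.

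The X summits, gene lists and words were chosen with earlier results of these data known. Named genes are those nearest to the 25 strongest X summits, the 6 with most summits, up to 4 bound members per list, unbound members of lists with at most 12 members, those at the threshold, and others beside a listed gene. Others named in the list descriptions were chosen after their values were seen. Alternatives were the strongest 50% of summits, 1 summit per interval, each replicate alone, and other distances, windows and assignment rules.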

Additional observations from a re-analysis of the deposited data

How the results depend on the processing

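Of 209 alternative values, 190 kept their side of the threshold or stayed within 1.5 times. Of the others, 15 counts moved, 2 tests lost and 2 gained a call, and 0 calls reversed. Ratios without a call were held to the threshold alone, and several of them crossed 1. The ratio within 500 bp of a TSS was 0.9834 as reported and 1.033 with a distance of 1000 bp. That over 10 kb from the nearest protein-coding TSS was 0.8836 as reported, and 1.054 with the TSSs of all annotated genes. With the strongest 50% of summits the intronic ratio was 1.184, the number of X summits 222 and of bound X genes 147. Without a replicate, the intronic ratio was 1.179 to 1.253 and the intergenic ratio 0.7525 to 0.8609, which lost the call without replicate 3 (adjusted p = 0.0679 by Fisher's exact test). The GAGAGA ratio was 1.463 to 1.672 without a replicate and 1.478 with a 100 bp window, each cause not tested. Counting any TSS within 5 kb made 435 X genes bound, by construction of a rule that gives a summit to several genes. By that rule 3 neuronal excitability genes and 1 odorant or gustatory receptor gene were bound, and 5 ribosomal protein genes. Without replicate 1, 237 of the 265 bound genes were found again among 275, and without replicate 3, 238 among 274. The 25 strongest X summits were found again without either replicate, though they come from a list selected from both replicates. No paired analysis was possible because there is only 1 group. Without read counts, what lies below the lists cannot be judged.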

Other observations

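Most bound X genes, 207 of 265, belonged to none of the lists, and their median stretch of nearest sequence was 9890 bp, against 23798.5 bp for the 58 listed and bound genes. The genes named in the following were chosen after their values were seen, and no test was made on them. In BMP signalling, tsg (twisted gastrulation), which encodes a secreted partner of the Sog protein, had a summit 193 bp upstream of its TSS with a pooled signal of 450, 189 in replicate 1 and 260 in replicate 3. Replicate 3 was the higher at tsg. Its pooled value was above that of the summit assigned to sog (249). It was below that of the summit 13569 bp upstream of sog (1366), which the nearest-TSS rule gave to CG8117. In steroid metabolism, phtm (phantom), an ecdysone-producing P450, had 511 at 713 bp upstream, with 276 in replicate 1 and 280 in replicate 3. Cyp18a1, which inactivates ecdysteroids and also had summits, is its direct neighbour (phtm at chrX:18685766-18688433, Cyp18a1 at chrX:18688538-18693042). The nearest-TSS rule gave 1 summit to phtm and 2 to Cyp18a1. Whether these summits belong to 1 locus or to separate loci was not tested.

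Among genes of cell polarity and contact, baz (bazooka, the Par-3 scaffold) had 4 summits, the highest at 357 with 159 in replicate 1 and 198 in replicate 3. The gap junction genes Inx2 and ogre had 356 and 311, and Tre1, a receptor for germ cell migration, had 307 with 170 in replicate 1 and 145 in replicate 3. RNA-binding genes included ssx (sister of Sex-lethal), whose summit 71 bp upstream had 448 with 248 in replicate 1 and 195 in replicate 3, Imp with 382 and 3 summits, and fne, a relative of elav, with 359 and 3 summits. The ssx value exceeded both summits assigned to Sxl.

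The adenine nucleotide translocase gene sesB had 502 at 802 bp, 283 in replicate 1 and 264 in replicate 3. Gapdh2 had 311 at 169 bp with 149 in replicate 1 and 156 in replicate 3, Hex-A (hexokinase) 296 at 171 bp with 146 and 143, and Polr2A, the large subunit of RNA polymerase II, 278 at 44 bp with 130 and 154. Values were nearly even between the replicates at Gapdh2 and Hex-A, and replicate 3 was the higher at Polr2A.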
